A study of Mus musculus with 6 samples.

Results

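The Notch pathway genes described here are a list of 10 genes taken by symbol: the receptors Notch1, Notch2 and Notch3, the ligands Jag1, Dll1 and Dll4, the DNA-binding factor Rbpj, and Hes1, Hes6 and Hey1, which belong to the families of Notch target genes. All 10 were found among the 38561 Ensembl genes in the count tables, and all 10 were among the 16425 genes that passed the expression filter. RNA of scraped small intestinal mucosa was sequenced after oligo deoxy-T selection, as 3 pools of Rbm47-IKO mice and 3 control pools. Both groups were C57BL/6J mice of 8 to 12 weeks, with RNA of 3 mice of both sexes in each pool according to the sample labels, although the paper's methods and legends give wider ranges of mice per pool and of age. Rbm47-IKO mice carry floxed Rbm47 alleles and a constitutive Vil-Cre transgene, which is active in the intestinal epithelium and not in the muscle, vessels or connective tissue of a scraping. The sample labels call the controls wt, whereas the paper compares with floxed mice that lack the Cre.

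Notch receptors are cut on contact with a ligand on a neighbouring cell, and the freed intracellular domain joins RBPJ on DNA and switches on genes such as Hes1. In the intestinal crypt, cells with Notch signaling stay progenitors or become absorptive enterocytes, since HES1 represses Atoh1. Cells that escape the signal express Atoh1, display DLL1 and DLL4 and become goblet, Paneth, enteroendocrine or tuft cells. Outside the epithelium, Notch3 is a receptor of smooth muscle and pericytes, and Hey1 is a target gene of endothelium and other vessel cells.

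Each pool held between 31560320 and 38951830 counts. Rbm47, the targeted gene, had a normalized CPM (counts scaled to the TMM-adjusted library size) of 603, 625 and 620 in the Rbm47-IKO pools and of 460, 450 and 472 in the control pools. The targeted gene was thus not lower where the label says it was deleted (0.42 higher on the log2 scale with a standard error of 0.10, edgeR adjusted p = 0.0751). It was called higher by DESeq2 (adjusted p = 0.00942) and by edgeR with library size only (0.0473). Which exons the floxed allele removes is not given in the sources used here. The knockout group is therefore called the pools labelled Rbm47-IKO, and every direction below rests on those labels. In the edgeR quasi-likelihood test 2.70% of all tested genes passed a Benjamini-Hochberg adjusted p of 0.05, 1.45% being higher and 1.25% lower in the knockout-labelled group. The 8 epithelial markers, Epcam, Cdh1 and Vil1 among them, were present in every pool at a summed CPM of 11990 to 14723. A pair of pools stood apart in their smooth muscle RNA, since the summed CPM of 6 smooth muscle markers was 3302 in Rbm47-IKO pool 3 and 2803 in control pool 2, against 90.7 to 586 in the other pools. Xist, which is transcribed in females, had 75.6, 258 and 40.3 CPM in pools labelled Rbm47-IKO and 1.09, 150 and 0.686 CPM in controls, and the 4 Y-linked genes summed to 139, 53.0 and 144 CPM against 215, 87.9 and 220 CPM. Control pools 1 and 3 thus held hardly any Xist RNA, which goes against the label of both sexes, and the share of female RNA moved partly with genotype. With the Y-linked sum as a covariate 59 genes were called in place of 443. Fits without control pools 1 and 3 keep 1 control, pool 2, which is assumed to vary like the other pools. That pool is 1 of the pair rich in smooth muscle RNA, so that these fits change the muscle RNA of the control group along with its Xist. In bulk RNA fewer cells of a type and less RNA per cell cannot be told apart.

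Hes1 had the largest positive difference of the 10 genes, and its sequence is shown because the paper's primer list gives a qPCR assay for it. The primers match the Hes1 transcript Hes1-201 of GENCODE M21 and enclose 63 bases of coding sequence that run from exon 1 into exon 2 of 4 on the plus strand of chr16:30065657-30065851 (GRCm38, intron included). The capitals mark the primer sites, of which the right one is the reverse complement of the reverse primer.
Hes1 forward primer: ACGACACCGGACAAACCAA
Hes1 reverse primer: CTCCATGATAGGCTTTGATGACTTT
Hes1 amplicon: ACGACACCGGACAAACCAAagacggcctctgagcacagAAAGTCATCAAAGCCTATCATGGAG

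No Notch gene passed the adjusted threshold in either direction, and 1 of the 10, Hes1, had an unadjusted p under 0.05. Over all tested genes 16.8% had such a p. DESeq2 called 1 of the 10, again Hes1, and gave no adjusted p for Hey1. It called 7.95% of the 14241 genes for which it gave an adjusted p. limma-voom called 0 of the 10 and 2.62% of all genes, and it gave 1 of the 10 and 16.9% of all genes an unadjusted p under 0.05. These counts are near the shares over all genes. The estimates were above 0 for 6 genes and below 0 for 4 (5 and 5 with a correction for GC content), with a median log2 fold change of 0.08 against -0.01 over all tested genes. The pools of both genotypes were fully separated for Dll1 and Hes1, higher in pools labelled Rbm47-IKO, and overlapped for the other 8. Such separation was found in 23.3% of all tested genes, 11.7% with the Rbm47-IKO pools above and 11.6% with them below, so that 2 of 10 is near the share over all genes.

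**Figure D1:**
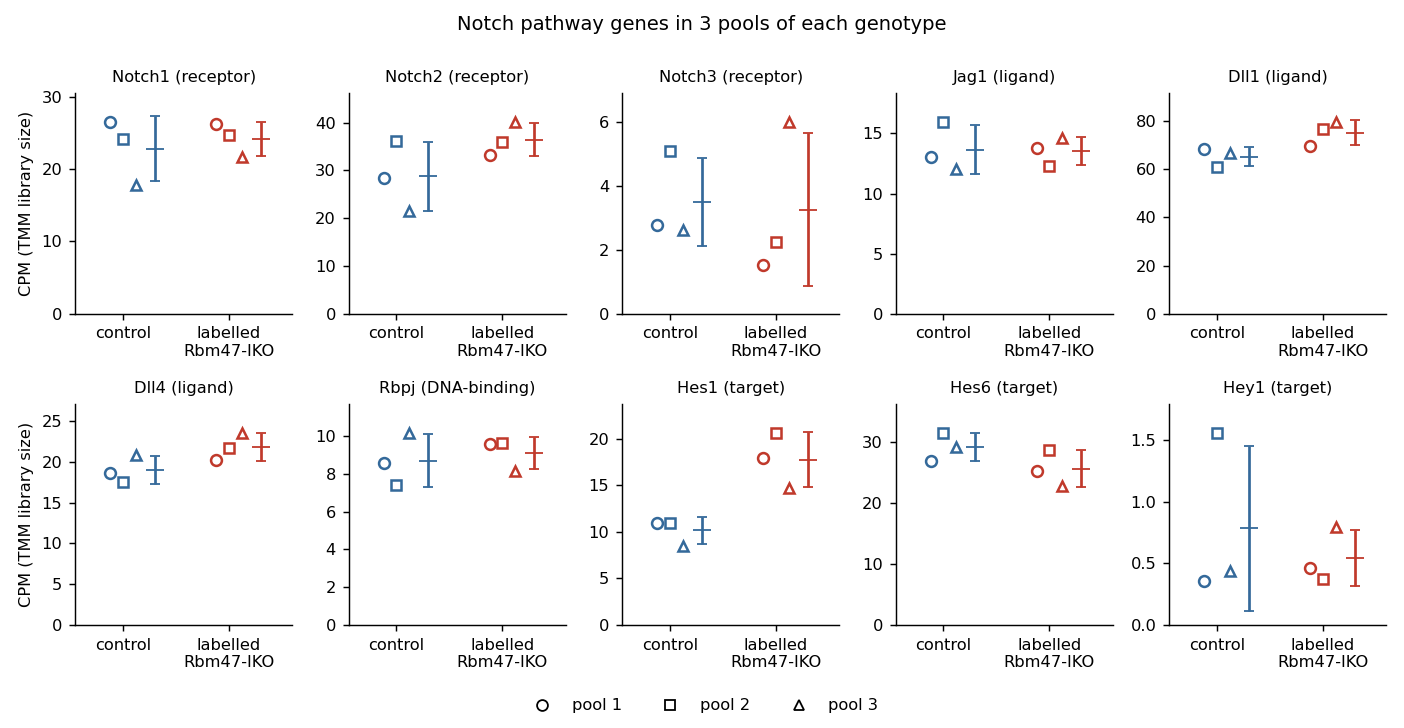
Normalized CPM of each Notch gene in the 3 control pools (blue) and the 3 pools labelled Rbm47-IKO (red). Symbols are single pools, and the bar beside them is the mean with 1 SD. The groups are separated for Dll1 and Hes1 and overlap in the other 8 panels.

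Among the receptors, none differed between genotypes beyond the spread of the pools. Notch1 (ENSMUSG00000026923, chromosome 2, 26457903 to 26516663), the main receptor of crypt progenitors together with Notch2, had 26.2, 24.6 and 21.7 CPM in pools labelled Rbm47-IKO and 26.5, 24.1 and 17.8 CPM in control pools. The groups overlapped, with the highest and the lowest pool both in the control group. The log2 fold change was 0.08 (standard error 0.17, 95% interval -0.30 to 0.47, edgeR adjusted p = 0.880), and its sign turned with the correction for GC content (-0.03).

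Notch2 (ENSMUSG00000027878, chromosome 3, 98013538 to 98150367) had 33.2, 35.8 and 40.2 CPM against 28.5, 36.1 and 21.6 CPM in controls. Rbm47-IKO pool 3 was the highest and control pool 2 the next, and these are the muscle-rich pools. It differed by a log2 fold change of 0.34 (standard error 0.19, 95% interval -0.09 to 0.78, edgeR adjusted p = 0.426), and without both of those pools it was 0.46 (adjusted p = 0.182). Single pools moved it both ways, to 0.54 without control pool 2 and to 0.18 without control pool 3, and it was 0.02 without control pools 1 and 3.

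Notch3 (ENSMUSG00000038146, chromosome 17, 32120820 to 32166880) was the most variable receptor, with 1.53, 2.24 and 6.00 CPM in pools labelled Rbm47-IKO and 2.76, 5.09 and 2.63 CPM in controls. The high pools were again Rbm47-IKO pool 3 and control pool 2, 1 of each genotype, so that the spread lay within the groups and not between them. The difference had a wide interval (log2 fold change -0.10, 95% interval -1.32 to 1.12, edgeR adjusted p = 0.957). Without both muscle-rich pools it was -0.52 (adjusted p = 0.388), and without control pool 2 alone it was 0.27, of the opposite sign. Without control pools 1 and 3 it was -0.64.

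The ligands Dll1 and Dll4, which secretory precursors display, had estimates slightly above 0, and the estimate of Jag1 was -0.01. Dll1 (ENSMUSG00000014773, chromosome 17, 15367354 to 15376872) had 69.5, 76.5 and 79.7 CPM in pools labelled Rbm47-IKO and 68.3, 60.8 and 66.8 CPM in controls. Every pool labelled Rbm47-IKO lay above every control pool, but the gap between Rbm47-IKO pool 1 and control pool 1 was small. On the log2 scale the difference was 0.21 (standard error 0.10, 95% interval -0.03 to 0.44, edgeR adjusted p = 0.372), and without both muscle-rich pools it was 0.11 (adjusted p = 0.688). Without control pools 1 and 3 it was 0.31.

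Dll4 (ENSMUSG00000027314, chromosome 2, 119325784 to 119335962) had 20.2, 21.7 and 23.5 CPM against 18.6, 17.5 and 20.8 CPM. The groups overlapped through control pool 3, which exceeded Rbm47-IKO pool 1. The difference of 0.20 on the log2 scale (95% interval -0.08 to 0.48, edgeR adjusted p = 0.482) was close in size to that of Dll1, and it was 0.077 without both muscle-rich pools, 0.091 with the GC correction and 0.32 without control pools 1 and 3. Per kilobase of gene length, the ratio of Dll1 to Dll4 was 3.16 ± 0.07 (SD, n = 3 pools) in pools labelled Rbm47-IKO and 3.15 ± 0.21 (SD, n = 3) in controls, and the pools overlapped.

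Jag1 (ENSMUSG00000027276, chromosome 2, 137081456 to 137116644), a ligand found in epithelium and in vessel walls, had 13.8, 12.3 and 14.6 CPM against 13.0, 16.0 and 12.0 CPM. Control pool 2 and Rbm47-IKO pool 3 were the highest, and the groups overlapped. The 95% interval of the log2 fold change ran from -0.37 to 0.35 (edgeR adjusted p = 0.984), and the estimate was -0.23 without control pools 1 and 3.

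Some of these counts may hold reads of another gene, because the use of strand in counting is not stated. Exons of Dll1 overlap the antisense gene A930024N18Rik (62 to 96 counts per pool, against 2307 to 2899 for Dll1). Exons of Dll4 overlap Gm14207 (93 to 138 counts, against 634 to 821). For Notch1 and Notch3 the antisense partners with reads, 0610009E02Rik and Gm17276, held at most 27 and 12 counts.

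Rbpj (ENSMUSG00000039191, chromosome 5, 53555779 to 53657445), through which all 4 Notch receptors act, had 9.56, 9.61 and 8.15 CPM in pools labelled Rbm47-IKO and 8.56, 7.38 and 10.2 CPM in controls. The control pools spanned the whole range, with the highest and the lowest value. Its log2 fold change was 0.07 (95% interval -0.34 to 0.47, edgeR adjusted p = 0.915), and 0.31 without control pools 1 and 3.

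The letters TGGGAA, the core that RBPJ binds, were searched on both strands in RefSeq windows of 250 bases before to 50 bases after each gene start (GRCm38.p6). Windows were found for 8 of the 10 genes, Hes1 and Hey1 being the others, and Rbpj was the 1 gene of the 8 whose windows held the core. Of all 32851 windows, 25.6% held it. The 250 bases before the first of the RefSeq starts of Rbpj (chr5:53590096-53590345, plus strand), which lies inside the gene span that the tables give, are shown because they hold 2 copies, marked by capitals, the left on the plus strand with its first base at -149 and the right on the minus strand at -65. Olfm4, a stem cell gene described below with the other crypt genes, has 1 copy at -12 (chr14:80000052-80000301, plus strand). Of 13 crypt genes with windows 3 held the core, the others being Spdef (-22) and Sox4 (-100). Of 41 genes with windows in the rest of the pathway, 13 held it. The share of 25.6% counts windows, and a gene can have more than 1. Counted by window, the core was in 2 of 11 for the Notch genes and 3 of 16 for the crypt genes. For the rest of the pathway it was in 13 of 54 windows.
Rbpj upstream: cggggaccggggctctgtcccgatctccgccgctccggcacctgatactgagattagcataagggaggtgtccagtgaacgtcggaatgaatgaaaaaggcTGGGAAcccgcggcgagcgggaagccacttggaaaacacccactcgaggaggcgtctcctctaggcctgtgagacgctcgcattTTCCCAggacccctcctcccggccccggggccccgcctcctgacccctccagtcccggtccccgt
Olfm4 upstream: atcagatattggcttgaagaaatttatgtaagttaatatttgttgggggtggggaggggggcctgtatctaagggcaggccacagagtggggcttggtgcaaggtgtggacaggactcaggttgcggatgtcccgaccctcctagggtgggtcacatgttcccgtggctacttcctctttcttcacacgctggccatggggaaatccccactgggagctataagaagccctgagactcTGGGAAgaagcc
A match of these letters is a description of the window and not a measured binding site.

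Hes1 (ENSMUSG00000022528, chromosome 16, 30064384 to 30067796), the repressor through which Notch holds down Atoh1, had 17.9, 20.6 and 14.8 CPM in pools labelled Rbm47-IKO and 11.0, 11.0 and 8.51 CPM in control pools. Every pool labelled Rbm47-IKO exceeded every control pool, and the lowest of them, pool 3, was above the highest control. The mean was 17.8 ± 2.93 CPM (SD, n = 3 pools) against 10.2 ± 1.44 CPM (SD, n = 3), 1.75-fold as high (95% interval 1.32 to 2.32). The log2 fold change of 0.81 (standard error 0.18) had an unadjusted p of 0.00202 and an edgeR adjusted p of 0.0613 over all genes, just short of the threshold. The adjusted p lay between 0.00256 and 0.351 over 19 alternative analyses, and Hes1 passed in 4 of them: DESeq2 (0.00256), a robust fit (0.0483), a filter of at least 1 CPM in 3 pools (0.0488) and the fit without both muscle-rich pools (0.0465, log2 fold change 0.98). With the Y-linked covariate its log2 fold change was 0.67 (adjusted p = 0.195), and without the low-Xist control pools 1 and 3 it was 0.70 (adjusted p = 0.351). It passed in 0 of the 6 fits that left out 1 pool, in which the log2 fold change was 0.69 to 0.93.

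Hes6 (ENSMUSG00000067071, chromosome 1, 91411483 to 91414038), a relative that opposes HES1 and is expressed in secretory precursors, had 25.2, 28.7 and 22.7 CPM against 26.8, 31.4 and 29.2 CPM in controls. The groups overlapped, since Rbm47-IKO pool 2 exceeded control pool 1. Its log2 fold change was -0.19 (standard error 0.13, 95% interval -0.48 to 0.10, edgeR adjusted p = 0.530). It was -0.11 without Rbm47-IKO pool 3, -0.060 without both muscle-rich pools and -0.36 with the GC correction. Within each pool, the ratio of Hes1 to Hes6 per kilobase was 0.631, 0.637 and 0.577 in pools labelled Rbm47-IKO and 0.364, 0.310 and 0.259 in controls. These ratios did not overlap, as was already so for Hes1 alone.

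Hey1 (ENSMUSG00000040289, chromosome 3, 8663362 to 8667039) was the lowest of the 10 genes, with 0.462, 0.370 and 0.796 CPM against 0.353, 1.55 and 0.439 CPM, or 12 to 59 counts per pool. Control pool 2 was by far the highest and Rbm47-IKO pool 3 the next. Its estimate was a log2 fold change of -0.54 (standard error 0.63, 95% interval -2.00 to 0.93, edgeR adjusted p = 0.770), and it was 0.44 without control pool 2 and 0.06 without both muscle-rich pools, so that its sign rested on control pool 2. Without control pools 1 and 3 it was -1.51.

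**Figure D2:**
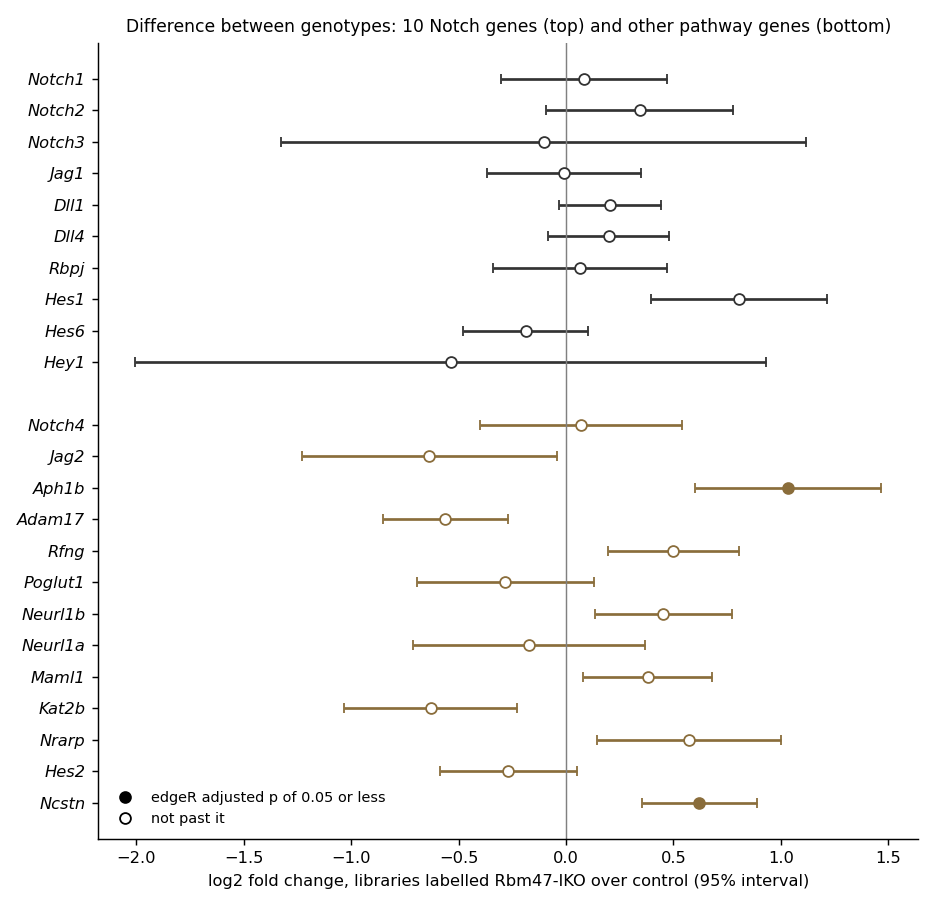
Log2 fold change (pools labelled Rbm47-IKO over control) with its 95% interval from edgeR, for the 10 Notch genes and for the named genes of the rest of the pathway. Filled points passed an adjusted p of 0.05. The interval of Hes1 lies above 0 without passing the adjusted threshold, and Aph1b and Ncstn are the filled points.

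Levels of the 10 genes were compared per kilobase of gene length, as the mean over all 6 pools. Dll1 (16.7 CPM per kilobase) and Hes6 (15.1) were the highest and overlapped each other. Hes1 (6.86) and Dll4 (5.29) followed and also overlapped. Below them came Notch2 (3.10) with Jag1 (2.34), then Notch1 (1.65) with Rbpj (1.53), and last Notch3 (0.420) with Hey1 (0.301). Between each of these 5 pairs and the next the ranges over the 6 pools did not overlap, and within each pair they did. In control pools alone Hes1 (4.99 ± 0.705, SD, n = 3) and Dll4 (4.93 ± 0.435) had like levels, and in pools labelled Rbm47-IKO Hes1 was at 8.73 ± 1.44 and Dll4 at 5.66 ± 0.437.

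**Figure D3:**
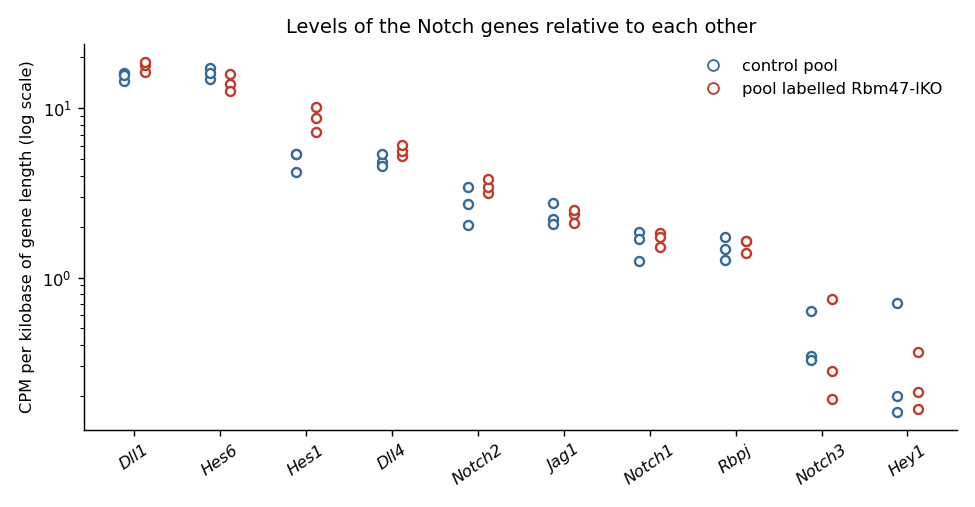
Level of each Notch gene as CPM per kilobase of gene length on a log scale, with 1 point per pool, ordered by the mean over all 6 pools. Dll1 and Hes6 stand highest, Notch3 and Hey1 lowest with the widest scatter, and Hes1 shows the widest gap between separated red and blue points.

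Markers of other cell types were set beside these values. The smooth muscle sum was 361, 586 and 3302 CPM in pools labelled Rbm47-IKO and 90.7, 2803 and 313 CPM in controls, and 5 mural cell markers had 62.6, 88.6 and 516 CPM against 30.3, 315 and 69.3 CPM. Blood endothelium, with 8 markers, had 18.9, 30.0 and 35.3 CPM against 21.9, 57.5 and 27.4 CPM. Notch2, Notch3, Jag1 and Hey1 had Rbm47-IKO pool 3 and control pool 2 as their highest 2. The same held for the smooth muscle, mural, blood endothelial, fibroblast, and enteric neuron and glia lists, but not for the lymphatic list. Rgs5 gave 447 CPM of the mural sum in Rbm47-IKO pool 3. The mural marker Pdgfrb did not follow, with 10.5 CPM in Rbm47-IKO pool 2 and 10.3 CPM in pool 3. Dll1 and Dll4 were highest in Rbm47-IKO pool 3 and lowest in control pool 2, and Hes1 was highest in Rbm47-IKO pool 2. No marker of these lists was at 0 in any pool. Of all 67 marker genes 0 were called by edgeR, 7 having an unadjusted p under 0.05, whereas DESeq2 called 5 (Cck, Cdx2, Clca1, Gip and Ptprc) and limma-voom called 0, with 8 at an unadjusted p under 0.05. Over all genes these shares were 16.8% (edgeR, unadjusted) and 16.9% (limma-voom, unadjusted). For DESeq2 the share was 7.95% of the genes with an adjusted p. The marker counts did not exceed these shares. The part of these cells in the level of each Notch gene was not tested.

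**Figure D4:**
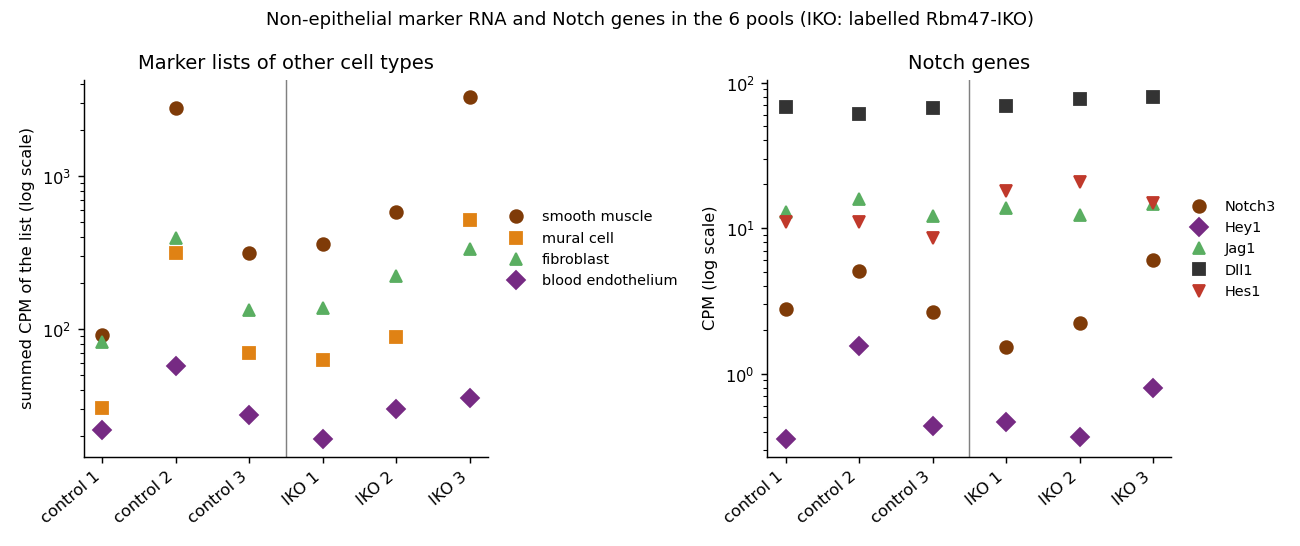
Summed CPM of 4 marker lists (left) and CPM of 5 Notch genes (right) in each pool, both on log scales. All 4 lists have control pool 2 and Rbm47-IKO pool 3 as their highest 2, as do Notch3, Jag1 and Hey1. Dll1 is highest in Rbm47-IKO pool 3 and lowest in control pool 2, and Hes1 is highest in Rbm47-IKO pool 2.

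The rest of the pathway was followed in a list of 52 genes, of which 44 were tested. Dll3, Dlk1, Dlk2, Bend6, Hes3, Hes5, Hes7 and Hey2 were below the expression filter. Of the 44, 2 rose in pools labelled Rbm47-IKO and 0 fell (2.70% called over all genes), and 9 had an unadjusted p under 0.05 (16.8% over all genes). DESeq2, which called 7.95% of the genes with an adjusted p, called 5 (Adam17, Aph1b, Kat2b, Ncstn and Rfng). limma-voom called Aph1b and Ncstn. The median log2 fold change was 0.07, with 26 estimates above 0 and 18 below. With the GC correction it was 0.01, with 22 above and 22 below. The pools were separated with Rbm47-IKO above for 9 genes and below for 6, and they overlapped for 29, where 11.7% and 11.6% of all genes were so separated.

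Both called genes encode subunits of gamma-secretase, the protease that makes the final cut in a Notch receptor. Ncstn (nicastrin, chromosome 1, 172066013 to 172082795) had 240, 249 and 228 CPM against 142, 151 and 174 CPM in controls. The groups were well apart, with a log2 fold change of 0.62 (standard error 0.11, 95% interval 0.35 to 0.89, edgeR adjusted p = 0.0387). Its exons overlap those of Copa on the opposite strand, which held 18299 to 27064 counts per pool against 4819 to 9447 for Ncstn, so that without a stated use of strand reads of Copa cannot be told apart from its own in the overlap.

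Aph1b (chromosome 9, 66775202 to 66795490) had 8.84, 8.11 and 8.27 CPM against 3.35, 4.40 and 4.56 CPM. The lowest pool labelled Rbm47-IKO was far above the highest control. The log2 fold change was 1.03 (standard error 0.19, 95% interval 0.60 to 1.47, edgeR adjusted p = 0.0365). Aph1c, its close paralog, can share reads with Aph1b, so that both are uncertain.

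Neither call was stable to the choice of pools. Aph1b passed in 10 of the 19 alternatives, among them every other scaling, filter and tool and the GC correction, and Ncstn passed in 7. Ncstn did not pass with RLE size factors (adjusted p = 0.0542), with the GC correction (0.0853) or without both muscle-rich pools (0.0931), and Aph1b did not pass without those pools (0.0651). With the Y-linked covariate the adjusted p was 0.137 for Ncstn (log2 fold change 0.61) and 0.126 for Aph1b (log2 fold change 1.02). Without control pools 1 and 3 the log2 fold change was 0.67 for Ncstn and 0.94 for Aph1b. Ncstn passed in 0 of the 6 fits without 1 pool (adjusted p 0.0621 to 0.219), and Aph1b passed in 1, without control pool 2. With either Rbm47-IKO pool 1, 2 or 3 or control pool 3 left out, 0 of the other pathway genes were called, and without Rbm47-IKO pool 2 the count over all genes was also 0, with 1729 at an unadjusted p under 0.05. Without control pool 1 the 1 pathway gene called was Kat2b, at a log2 fold change of -0.79 (adjusted p = 0.0473), and without control pool 2 Adam17 was called beside Aph1b (-0.66, adjusted p = 0.0396).

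**Figure D5:**
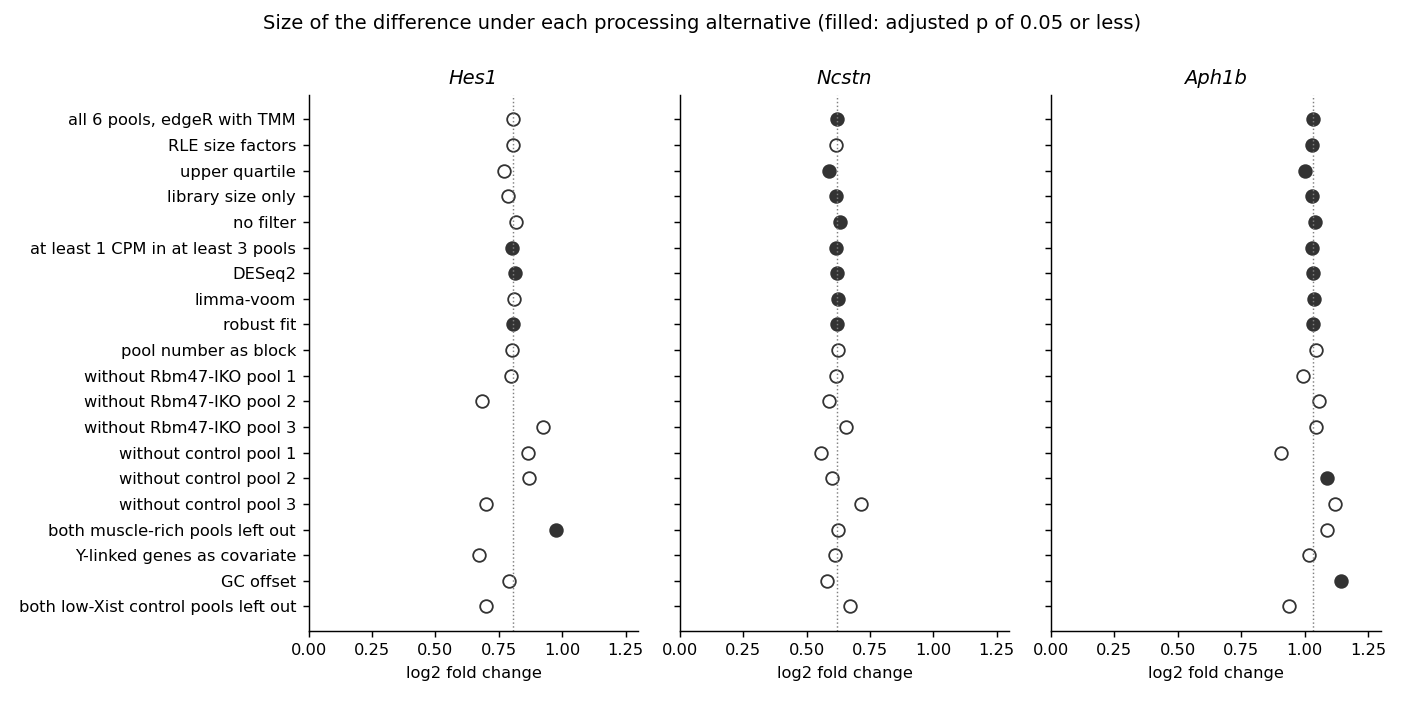
Log2 fold change of Hes1, Ncstn and Aph1b with all 6 pools (top line, and dotted line) and under 19 alternatives. Filled points passed an adjusted p of 0.05. The estimates stay at 0.67 or more for Hes1, at 0.56 or more for Ncstn and at 0.91 or more for Aph1b, while the calls come and go.

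None of the genes at the ends of the other functional groups passed the edgeR test over all 6 pools with TMM scaling, and their values are given in that light. Adam17, a sheddase that can make the cut before gamma-secretase, had 38.0, 32.6 and 34.4 CPM against 54.6, 44.4 and 56.0 CPM. Its log2 fold change was -0.56 (edgeR adjusted p = 0.0639), and it passed with upper quartile scaling (0.0490) and with library size only (0.0478). It was -0.45 with the Y-linked covariate (0.179) and -0.34 without control pools 1 and 3 (0.431). Its exons overlap those of the antisense gene Iah1 (876 to 1407 counts, against 1124 to 2042 for Adam17). Among receptors and ligands outside the 10, Jag2 had the lowest estimate (-0.64, adjusted p = 0.266, and -0.42 without control pool 1) and Notch4 the highest (0.07, adjusted p = 0.924), which turned to -0.11 with the GC correction.

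Rfng, a fringe glycosyltransferase that modifies Notch receptors, had 33.9, 34.2 and 38.5 CPM against 22.4, 23.7 and 29.2 CPM (log2 fold change 0.50, edgeR adjusted p = 0.0974), and Poglut1, a glucosyltransferase of the receptors, had an estimate of -0.28 (adjusted p = 0.50). Of 14 genes for endocytosis and turnover, Neurl1b, a ubiquitin ligase for Notch ligands, had the highest estimate (0.45, adjusted p = 0.138) and Neurl1a the lowest (-0.17, adjusted p = 0.808). That of Neurl1a was -0.052 without Rbm47-IKO pool 2 and -0.37 with the GC correction. Among nuclear cofactors these were Maml1, a coactivator of the RBPJ complex, at 0.38 (adjusted p = 0.186), and the acetyltransferase Kat2b at -0.63 (adjusted p = 0.111).

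Nrarp, a direct target that dampens Notch signaling, had 21.8, 21.7 and 16.4 CPM in pools labelled Rbm47-IKO and 16.4, 12.7 and 11.3 CPM in controls. As for Hes1, all pools labelled Rbm47-IKO were above all controls, although the lowest exceeded the highest control only slightly. On the log2 scale this was a difference of 0.57 with a standard error of 0.18 (edgeR adjusted p = 0.164). Hes2, a relative of Hes1 listed with the targets by its gene family, had the lowest estimate of that group outside the 10. It was -0.27 (edgeR adjusted p = 0.389), and -0.12 without control pool 3. Whether Hes2 responds to Notch here was not tested.

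Genes that act on crypt cell fate downstream of or beside Notch were listed as 18 genes, of which 17 were tested. edgeR called 0, with 2 at an unadjusted p under 0.05, limma-voom called 0, with 1, and DESeq2 called 1, Olfm4. Over all genes the shares at an unadjusted p under 0.05 were 16.8% (edgeR) and 16.9% (limma-voom). DESeq2 called 7.95% of the genes with an adjusted p. The crypt genes did not exceed these shares. Atoh1, the master factor of secretory cells, had 28.7, 32.7 and 24.4 CPM in pools labelled Rbm47-IKO and 23.1, 23.4 and 22.9 CPM in controls. The pools did not overlap, but Rbm47-IKO pool 3 was close to the controls (log2 fold change 0.30, 95% interval 0.01 to 0.60, edgeR adjusted p = 0.287). The estimate was 0.20 without Rbm47-IKO pool 2 (adjusted p = 0.764) and 0.41 without Rbm47-IKO pool 3. Per kilobase, the ratio of Hes1 to Atoh1 was 0.636 ± 0.015 (SD, n = 3 pools) against 0.450 ± 0.060 (SD, n = 3), without overlap. Gfi1 and Spdef, factors of goblet and Paneth cells, had estimates of 0.14 (adjusted p = 0.797) and 0.31 (adjusted p = 0.471). Over the alternatives Gfi1 ranged from 0.013 with the GC correction to 0.37 without control pools 1 and 3, and Spdef from 0.15 without Rbm47-IKO pool 1 to 0.49 without Rbm47-IKO pool 3.

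Neurog3, which starts the enteroendocrine lineage, was below the expression filter, with 4 or 5 counts in each pool labelled Rbm47-IKO and 9 to 17 in each control pool, and its exons overlap those of the antisense gene Fam241b (206 to 353 counts). Olfm4, a stem cell marker that depends on Notch, had 16.8, 16.4 and 12.3 CPM against 43.0, 79.7 and 20.7 CPM. All pools labelled Rbm47-IKO were below all controls, and the controls differed widely among themselves (log2 fold change -1.65, standard error 0.43, 95% interval -2.66 to -0.65, edgeR adjusted p = 0.0974). The estimate was -1.06 without control pool 2 and -0.94 without both muscle-rich pools. Lgr5, the stem cell receptor, had an estimate of 0.18 (adjusted p = 0.829), which ranged from -0.21 without control pools 1 and 3 to 0.60 without both muscle-rich pools, and from 0.019 to 0.44 with control pool 3 or control pool 2 left out.

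Marker sums of the mature secretory cells are given beside these genes. The 5 goblet markers summed to 20045, 22668 and 19908 CPM in pools labelled Rbm47-IKO and to 17345, 15705 and 14963 CPM in controls, without overlap. The sum rests mostly on Fcgbp (10374 to 15215 CPM) and Clca1, whose pools were separated, while Muc2, Tff3 and Agr2 overlapped (log2 fold changes 0.25, 0.06 and 0.19). The 5 enteroendocrine markers summed to 114, 109 and 97.9 CPM against 136, 170 and 165 CPM, in the opposite order and also without overlap. Of these, Cck and Gip were separated between genotypes, and Chga and Chgb, which make up most of the sum, and Neurod1 overlapped. Single genes were so separated in 23.3% of all tested genes. The edgeR adjusted p was 0.123 for Clca1, 0.261 for Fcgbp, 0.101 for Cck and 0.0870 for Gip, so that these did not pass. DESeq2 called Clca1, Cck and Gip. The Paneth list (247 to 455 CPM against 314 to 1204 CPM) and the tuft list (66.4 to 118 CPM against 48.9 to 131 CPM) overlapped. Their part in the levels of Hes1, Dll1 and Atoh1 was not tested.

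The genes with the most similar pattern over the 6 pools were sought by the root mean square difference of centred log2 CPM among 9768 genes of at least 5 CPM, and they are given for 4 of the Notch genes. For Hes1 they were Zc3h12a (0.078), Creb3l1 (0.082) and Klhl5 (0.101), against a root mean square deviation of 0.441 of Hes1 itself. For Notch3 (deviation 0.664) they were Ints6l (0.096), Rassf2 (0.156) and Trp53i11 (0.164). Notch1 was nearest to Tgm2 (0.040), Fam136a and Anp32b, and Hes6 to Yipf1 (0.032), Rab9 and Txndc17. With 6 points and so many genes such nearness is a description of these pools.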

How the data were processed

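For every pool the authors deposited raw read counts for 38561 Ensembl genes, with CPM (the count scaled to the pool's total) and RPKM (CPM per kilobase of gene length) computed from it. Recomputed from the counts, the deposited CPM and RPKM differed by less than rounding and were not used further. Submitters' processing notes name STAR 2.5.1a, Subread with featureCounts 1.4.6-p5 and GRCm38, and the use of strand is not given in the sources used here. GENCODE M21 (GRCm38) gave symbols for 36639 IDs. Positions are those of the tables, promoter windows are RefSeq's, and the Hes1 primers come from the study's primer list.

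Groups follow the genotype label of each pool, with no pool left out and none identical to another. Counts were analysed in R 4.3.3 with edgeR 4.0.16 (filterByExpr, TMM, quasi-likelihood test, Benjamini-Hochberg adjusted p of 0.05 or less over 16425 genes, 95% intervals from the fit). DESeq2 1.42.0, limma-voom (limma 3.58.1), other scalings and filters, a robust fit, a pool-number block and left-out pools were alternatives. Fits with Y-linked genes as a covariate and with a GC offset (lowess, span 0.3), and a fit without control pools 1 and 3, were added after the data were seen. Log2 CPM for similarity used a prior count of 2, and tables were joined in Python 3.11.15. The test was checked on simulated data. An exact permutation test of 3 pools against 3 cannot pass the threshold and was not used. The members, lists and tests were chosen with earlier results of these data known. Named were the 10 genes, Rbm47, each called pathway gene, the highest and lowest estimate per pathway role, and Atoh1, Gfi1, Spdef, Neurog3, Olfm4 and Lgr5. Similarity was to be given for Notch1, Notch3, Dll4, Hes1 and Hes6, of which that of Dll4 is not reported here. Overlapping genes, untested genes and DESeq2 calls named in the text were chosen after their values were seen. Depth was 31560320 to 38951830 counts per pool, and reads are not independent molecules. Pools hold RNA of separate mice according to the labels, but p-values describe pools and not single mice.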

Additional observations from a re-analysis of the deposited data

How the results depend on the processing

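The 10 Notch genes gave 189 log2 fold changes over 19 alternatives, of which 178 kept their sign. The 11 that turned were those of Notch1 (-0.034 with the GC offset), Jag1 and Hey1 (0.052 and 0.056 without both muscle-rich pools), and values without 1 pool, which ranged from -0.063 to 0.21 for Notch1, -0.89 to 0.27 for Notch3, -0.091 to 0.12 for Jag1, -0.91 to 0.44 for Hey1 and -0.037 to 0.20 for Rbpj. Hey1 had no value with the filter of 1 CPM. Outside the 10, Notch4 (-0.043 to 0.18 without 1 pool, -0.11 with the GC offset) and Lgr5 (-0.038 with the Y-linked covariate, -0.21 without the low-Xist control pools 1 and 3) turned. Hes1 passed with the filter of 1 CPM (0.80), DESeq2 (0.81), the robust fit (0.81) and without both muscle-rich pools (0.98), which makes 1 member called in each of these 4 and 0 elsewhere. The other pathway genes called numbered 2, but 1 with RLE size factors, 3 with upper quartile scaling or library size only (Adam17 added), 5 with DESeq2, 0 with the replicate block, 0 without both muscle-rich pools, 0 with the Y-linked covariate, 0 without the low-Xist control pools, 1 with the GC offset, and 0 to 2 without 1 pool. Over all genes 443 were called, 383 with RLE size factors, 533 with upper quartile scaling, 614 with library size only, 327 without both muscle-rich pools, 100 with the replicate block, 1132 with DESeq2, 59 with the Y-linked covariate, 270 with the GC offset, 1 without the low-Xist control pools, and 0 to 431 without 1 pool (32, 0 and 119 without Rbm47-IKO pool 1, 2 and 3, and 11 without control pool 3). The causes were not tested.

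Pool numbers did not pair the pools, since same-numbered pools deviated together with a correlation of 0.41, -0.0026 and -0.28, and Rbm47-IKO pool 3 correlated best with control pool 2 (0.48). The fit with the pool number as a replicate block called 100 genes, 96 of them among the 443, and 0 Notch genes, and neither Ncstn (adjusted p = 0.106) nor Aph1b (0.0863) passed in it. Depth limits low genes such as Hey1, with 12 to 59 counts per pool, and Neurog3. With 3 pools per genotype the 95% intervals of the 10 genes reached from 0.24 to 1.47 log2 units to either side, so that missing the threshold does not show equal levels.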
